A study of Mus musculus with 4 samples.

Results

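The genes described here are 36 genes of glycolysis and the hypoxia response, measured in RPP631 cells, a mouse cell line of small cell lung cancer (SCLC). They were taken from a fixed list of symbols: 17 glycolytic enzymes, 6 transporters and regulatory kinases that feed or steer glycolysis, and 13 other hypoxia genes. This list was chosen with earlier results of these data known. Every symbol was found among the 54232 genes counted, and all 36 passed the filter on low counts that left 16749 genes to test. Aldoa is listed under a pair of Ensembl identifiers, so the 36 symbols cover 37 entries of the table. The longer entry, ENSMUSG00000030695, stands for the gene throughout. The other entry (ENSMUSG00000114515) covers 799 exonic bases and had 5.56 and 14.2 CPM (counts scaled to library size, with TMM factors) in DMSO replicates 1 and 2, and 10.2 and 8.66 CPM in YKL replicates 1 and 2.

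Bulk RNA sequencing compared cells kept for 48 h in DMSO, the vehicle, with cells kept for 48 h in 100 nM YKL, which the series title presents as an inhibitor of CDK7, a kinase of the transcription machinery and the cell cycle. Each group had 2 libraries, which the labels number as replicates 1 and 2. The labels give neither the genotype nor the clonal origin of RPP631, and do not state whether the replicates were separate cultures. The p-values therefore measure only the spread between these libraries, which may be technical. Gene counts totalled 34189709 and 31082753 for DMSO replicates 1 and 2, and for YKL replicates 1 and 2 they totalled 29817387 and 32956564. All 8 neuroendocrine markers of SCLC were present, between 41.5 and 1897 CPM. The summed levels of 6 fibroblast markers ran from 12.9 to 45.2 CPM and were mostly Pdgfra. Those of 6 leukocyte markers ran from 3.29 to 8.52 CPM, with Cd3e at 0 throughout. Ptprc, another leukocyte marker, reached 25 counts for YKL replicate 1 and 23 for YKL replicate 2, with no more than 2 in either DMSO library. It was the 1 of 4 tested leukocyte markers called by the test described below, higher in YKL (edgeR adjusted p = 0.0392). The share called higher over all tested genes was 2.1%. The summed levels of 4 endothelial markers ran from 2.33 to 4.08 CPM. The libraries of the DMSO group stand apart from each other in the genes described here, so each library is given on its own, and the calls of YKL against DMSO are given with and without each of them.

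Glycolysis splits glucose into pyruvate in the cytosol, and lactate dehydrogenase turns pyruvate into lactate, which leaves the cell through monocarboxylate transporters. When oxygen is low, the prolyl hydroxylases encoded by the Egln genes no longer mark HIF-1 alpha for destruction by the VHL ubiquitin ligase. The HIF dimer then binds hypoxia response elements and raises most glycolytic enzymes, glucose uptake and genes of vessel growth, mitophagy and collagen processing. Control of HIF-1 alpha is thus mainly at the protein and not at the RNA. Tumour cells often run glycolysis at a high rate even with oxygen present.

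The promoters of the 5 members with the largest ratio between the DMSO libraries are shown because these genes differed most between the DMSO libraries, as described below. Members were eligible only if they averaged 5 CPM or more and their promoter held a core, defined below. A match in each of the 5 was therefore fixed by the choice. The sequences are from RefSeq on GRCm38.p6, run 5′ to 3′ on the strand of the gene, and cover 250 bases before and 50 bases after a transcription start. Capitals mark the core letters of a hypoxia response element, ACGTG or GCGTG, searched on both strands. CACGT and CACGC are the same letters on the other strand, and CACGTG holds ACGTG on both. Hk2 lies at chr6:82774405-82774704 (minus strand), Adm at chr7:110627407-110627706 (plus), Aldoc at chr11:78322823-78323122 (plus), Pfkfb3 at chr2:11553880-11554179 (minus) and Bnip3 at chr7:138909457-138909756 (minus).
Hk2: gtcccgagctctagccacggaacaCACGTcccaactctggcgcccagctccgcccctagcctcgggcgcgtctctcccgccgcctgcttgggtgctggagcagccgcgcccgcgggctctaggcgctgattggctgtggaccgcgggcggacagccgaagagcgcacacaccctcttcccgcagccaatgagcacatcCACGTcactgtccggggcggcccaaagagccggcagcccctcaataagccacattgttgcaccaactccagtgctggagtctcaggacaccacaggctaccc
Adm: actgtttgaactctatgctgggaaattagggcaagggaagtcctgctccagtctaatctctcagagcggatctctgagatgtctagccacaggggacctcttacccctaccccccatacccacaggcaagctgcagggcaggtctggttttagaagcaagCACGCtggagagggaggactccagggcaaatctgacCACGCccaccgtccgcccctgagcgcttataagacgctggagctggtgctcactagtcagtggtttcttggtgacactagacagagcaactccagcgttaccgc
Aldoc: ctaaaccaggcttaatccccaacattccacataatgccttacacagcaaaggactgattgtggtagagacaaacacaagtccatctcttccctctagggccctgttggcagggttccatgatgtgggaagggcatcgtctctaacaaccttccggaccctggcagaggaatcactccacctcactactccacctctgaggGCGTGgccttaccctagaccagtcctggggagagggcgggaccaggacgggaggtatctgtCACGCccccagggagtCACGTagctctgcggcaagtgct
Pfkfb3: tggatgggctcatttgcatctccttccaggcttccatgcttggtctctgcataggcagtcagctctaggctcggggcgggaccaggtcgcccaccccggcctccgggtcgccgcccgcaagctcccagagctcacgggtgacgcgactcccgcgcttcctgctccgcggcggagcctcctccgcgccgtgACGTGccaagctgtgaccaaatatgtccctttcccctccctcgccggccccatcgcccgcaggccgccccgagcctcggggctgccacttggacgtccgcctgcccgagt
Bnip3: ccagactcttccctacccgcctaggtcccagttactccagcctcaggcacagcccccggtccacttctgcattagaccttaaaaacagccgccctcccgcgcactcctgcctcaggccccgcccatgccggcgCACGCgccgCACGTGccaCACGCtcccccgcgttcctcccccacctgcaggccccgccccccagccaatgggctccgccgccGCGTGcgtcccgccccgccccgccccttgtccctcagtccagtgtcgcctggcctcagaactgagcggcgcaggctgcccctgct

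Counted from the start site, with upstream bases negative, the matches began at -226 and -52 in Hk2 and at -90 and -54 in Adm. The single match of Pfkfb3 began at -60. Bnip3 held 5 matches in 4 runs of capitals, all upstream, and Aldoc held 3, at -50, 12 and 28. A promoter could be matched for 33 members, and 26 of these (78.8%) held at least 1 core. The share was 61.8% of the nearest promoters of 11705 tested genes and 43.8% of all 32851 promoters in the table. By role, 11 of 17 enzymes (64.7%), 5 of 5 transporters and kinases and 10 of 11 other hypoxia genes (90.9%) held a match. The share of the enzymes was thus near the 61.8% of tested genes. By letters, ACGTG was in 57.6% of the member promoters against 24.9% for tested genes, and GCGTG in 54.5% against 50.6%. The promoter nearest to the annotated gene start was used. It lay 6492 bases from that start for Hif1a, 5857 for Ankrd37 and 4329 for Ldha, which all held a core. For the other matched members the distance was at most 829 bases. A match is a run of letters and not a measured binding site. Over all tested genes with a promoter, the median log2 ratio of DMSO replicate 2 over DMSO replicate 1 was -0.01 with a match and 0.00 without one.

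The first comparison asked which of these genes YKL changed. In YKL against DMSO, 0 of the 36 members were called by edgeR's quasi-likelihood test at a Benjamini-Hochberg adjusted p under 0.05, against 3.54% of all tested genes (2.1% higher and 1.44% lower in YKL). At an unadjusted p under 0.05 the count was 1 member, Ldhb, against 21.2% of all genes, and DESeq2 called 0 members. The median log2 fold change, YKL over DMSO, was -0.11 for the enzymes, 0.05 for the transporters and kinases and -0.21 for the other hypoxia genes, beside 0.00 over all tested genes. The standard errors of single members ran from 0.21 to 1.94 on the log2 scale, where 1 is a 2-fold change. The absence of calls therefore does not show that the levels were the same. In bulk RNA, fewer cells with a transcript and less transcript in each cell cannot be told apart.

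The spread lay between the DMSO libraries. Of the 36 members, 28 were over 2-fold higher in DMSO replicate 2 than in DMSO replicate 1 and 0 were over 2-fold lower, against 9.99% and 3.4% of all tested genes. These were 13 of 17 enzymes, 4 of 6 transporters and kinases and 11 of 13 other hypoxia genes. Among genes that averaged 5 CPM or more, where counting error is small, 27 of 33 members were over 2-fold higher, against 4.25% of 11543 genes. Between the YKL libraries, 0 of 36 members differed by over 2-fold, against 7.86% of tested genes, a share that includes genes averaging under 5 CPM. The 2-fold counts rest on ratios of single libraries, taken on TMM-scaled CPM with 0.5 counts added. The members were chosen with earlier results of these data known, and no test was made. Nor was it tested what set the DMSO libraries apart. Their mitochondrial shares of counts were 1.01% and 1.14%, beside 1.25% and 1.78% in YKL, and their summed neuroendocrine markers were 4489 and 3814 CPM, beside 3453 and 3312 CPM. The summed fibroblast markers were 12.9 and 27.3 CPM in DMSO and 45.2 and 19.03 CPM in YKL.

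In 30 of the 36 members both YKL libraries lay between the DMSO libraries, with DMSO replicate 1 lowest and DMSO replicate 2 highest, an order held by 8.33% of all tested genes. In 3 members the YKL libraries lay outside both DMSO libraries, against 52.3% of all tested genes. Ldhb and Pfkfb4 were below both (25.3% of all tested genes), and Slc2a3 was above both (27%). Hk1, Eno2 and Hif1a had mixed orders. On the log2 scale the mean of the YKL libraries sat at a median of 61.3% of the way from DMSO replicate 1 to DMSO replicate 2 in the 30 members, and past the midpoint in 26 of them. The exceptions were Pdk1, Bnip3l, Car9 and Ddit4.

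**Figure D1:**
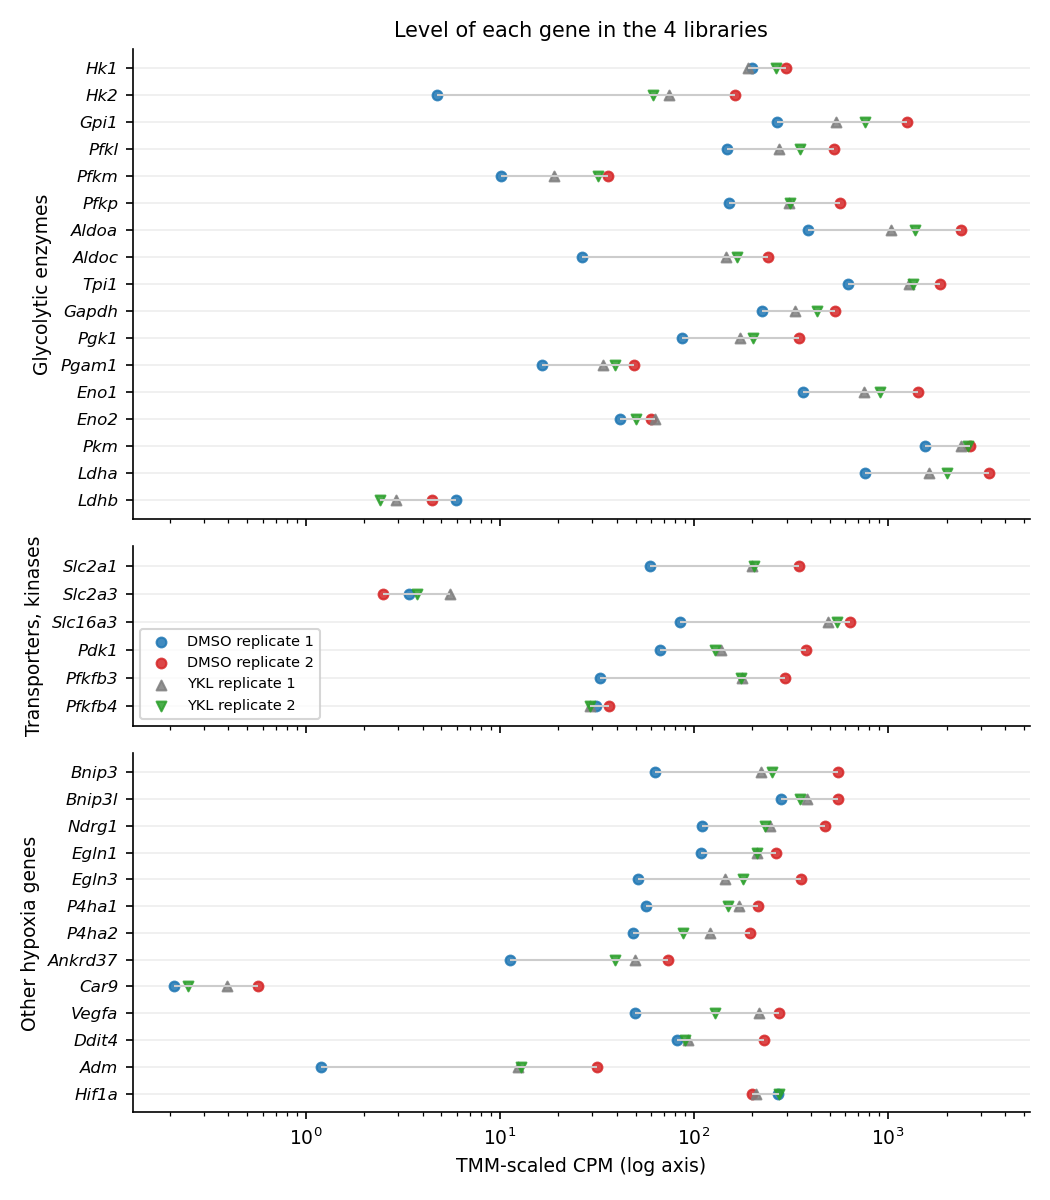
Level of each of the 36 genes in the 4 libraries as TMM-scaled CPM on a log axis, grouped by role, with a grey line spanning the 4 values. In 30 genes DMSO replicate 1 (blue circles) is the lowest point, DMSO replicate 2 (red circles) the highest, and both YKL libraries (triangles) lie between them.

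The upper steps of glycolysis showed the widest range. Hk2 (ENSMUSG00000000628, chr6:82725025-82774454), the inducible hexokinase that commits glucose to the cell, had 4.75 and 164 CPM in DMSO replicates 1 and 2, and 74.2 and 61.7 CPM in YKL replicates 1 and 2. DMSO replicate 2 was thus 34.3-fold above DMSO replicate 1, with a 95% exact binomial interval of 29.4 to 40.6 that covers counting error only. The YKL libraries lay within the DMSO range, and the fitted log2 fold change was -0.31 ± 1.94 (SE, 2 libraries per group, edgeR adjusted p = 0.957). Hk1, the hexokinase found in most tissues, had 199 and 297 CPM in DMSO and 190 and 264 CPM in YKL. In both groups replicate 2 was the higher one for Hk1.

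Gpi1, which converts glucose 6-phosphate to fructose 6-phosphate, had 268 and 1252 CPM in DMSO and 539 and 761 CPM in YKL. All 3 phosphofructokinase genes, whose product is the main gate of the pathway, moved by similar ratios between the DMSO libraries. DMSO replicate 2 was higher 3.55-fold for Pfkl, 3.52-fold for Pfkm and 3.73-fold for Pfkp. Their make-up shifted little: per length, Pfkl held 60.8% and 59.9% of the summed phosphofructokinase level in DMSO and 58.7% and 61.6% in YKL. Pfkp shares 748 exonic bases with Pitrm1 on the other strand, and Pfkm shares 341 with Gm26513 on its own strand and 18 with Senp1 on the other.

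Both aldolases, which split fructose 1,6-bisphosphate, ranked among the members with the largest ratios. Aldoa (chr7:126795234-126800751) had 387 and 2377 CPM in DMSO and 1032 and 1368 CPM in YKL. Its DMSO ratio was 6.15 (interval 6.03 to 6.26). Aldoc (ENSMUSG00000017390, chr11:78322968-78327781), the aldolase known from brain, had 26.6 and 241 CPM in DMSO and 146 and 166 CPM in YKL. Its DMSO ratio was 9.05 (interval 8.45 to 9.72), and the fitted log2 fold change was 0.22 ± 1.28 (SE, edgeR adjusted p = 0.953).

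From triose phosphates to pyruvate the DMSO ratios ran from 1.45 for Eno2 to 4.02 for Pgk1. Tpi1 (ENSMUSG00000023456, chr6:124810586-124814296), triose phosphate isomerase, had 625 and 1849 CPM in DMSO and 1280 and 1344 CPM in YKL. Gapdh, which forms 1,3-bisphosphoglycerate and is widely used as a reference gene, had 223 and 530 CPM in DMSO and 332 and 429 CPM in YKL. The 2.38-fold DMSO ratio of Gapdh exceeded the 2-fold mark. Pgk1, the first ATP-forming step, differed 4.02-fold between the DMSO libraries, and Pgam1, phosphoglycerate mutase, 2.98-fold. Eno1, the common enolase, had 363 and 1429 CPM in DMSO and 750 and 913 CPM in YKL. Eno2, the enolase of neurons and neuroendocrine cells, had only 41.6 and 60.4 CPM in DMSO and 62.8 and 50.01 CPM in YKL. Pkm, pyruvate kinase, was abundant in every library and differed 1.69-fold between the DMSO libraries, from 1555 to 2634 CPM. Pkm shares 767 exonic bases with AC160637.1 on the same strand. Gapdh, Eno1, Ldha, Aldoa and other glycolytic genes have processed pseudogenes, and the sources used here do not state how reads mapping to several places were counted, so their levels are uncertain.

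Ldha (ENSMUSG00000063229, chr7:46841475-46855627), the subunit of lactate dehydrogenase that favours lactate, had the highest mean level per length of all members, though in DMSO replicate 1 Pkm was above it (311 RPKM). Ldha had 228 and 999 RPKM (CPM per kilobase of exon) in DMSO and 493 and 610 RPKM in YKL. In CPM these were 756, 3307, 1632 and 2019, and DMSO replicate 2 was 4.37-fold above DMSO replicate 1 (interval 4.31 to 4.43). The fitted log2 fold change was -0.15 ± 0.83 (SE, edgeR adjusted p = 0.948). Ldhb, the subunit that favours pyruvate, was low, and its DMSO ratio of 0.749 ran the other way from that of Ldha. It had 5.98 and 4.47 CPM in DMSO and 2.90 and 2.42 CPM in YKL. Both YKL libraries were below both DMSO libraries, with a log2 fold change of -0.97 ± 0.41 (SE, edgeR adjusted p = 0.215). The authors' deposited table gives Ldhb a log2 fold change of -0.83 and an adjusted p of 0.0046. It was the 1 member of 34 found in the authors' deposited table with an adjusted p under 0.05, against 27.8% of the 15936 genes there.

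As a whole the 17 enzymes took 0.476% of all counts in DMSO replicate 1 (95% Wilson interval 0.474% to 0.479%) and 1.59% in DMSO replicate 2. The YKL libraries lay between these, at 0.949% and 1.06%. The share thus differed 3.34-fold within DMSO and 1.12-fold within YKL.

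Some paralogs that do the same reaction did not scale together. Per length, Hk2 made up 3.30% of the summed Hk1 and Hk2 level in DMSO replicate 1 (95% Wilson interval 2.83% to 3.84%, counting error only), 44.0% in DMSO replicate 2, and 35.9% and 25.0% in YKL. For the enolases the share of Eno2 was highest in DMSO replicate 1, at 11.6%, and lowest in DMSO replicate 2, at 4.61%. Ldhb made up 1.64% of the lactate dehydrogenase pair in DMSO replicate 1 and at most 0.374% in the other 3 libraries. The share of Aldoc was 5.78% and 8.29% in DMSO and higher in YKL, at 11.2% and 9.77%.

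**Figure D2:**
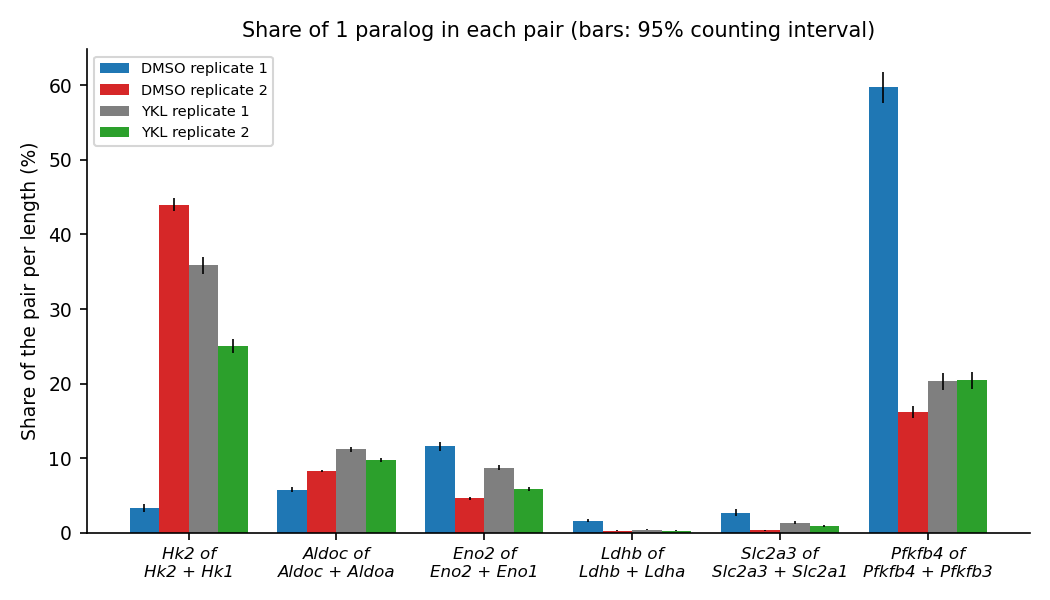
Share of 1 paralog in each of 6 pairs, per exonic length, in percent, for the 4 libraries; bars start at 0 and the black lines are 95% Wilson counting intervals. The share of Hk2 was 3.30% in DMSO replicate 1 and 25.0% to 44.0% in the other libraries, and Pfkfb4 was 59.7% of its pair in DMSO replicate 1 alone and 16.2% to 20.4% elsewhere.

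Among the transporters, Slc2a1 (ENSMUSG00000028645, chr4:119108711-119137983), the glucose importer GLUT1, had 59.5 and 346 CPM in DMSO and 199 and 205 CPM in YKL. The YKL libraries were within 1.03-fold of each other while the DMSO libraries differed 5.82-fold (interval 5.55 to 6.11). Its fitted log2 fold change was -0.01 ± 1.03 (SE, edgeR adjusted p = 0.999). Slc2a3, the high-affinity importer GLUT3, was low everywhere, with 3.41 and 2.51 CPM in DMSO and 5.52 and 3.76 CPM in YKL. It was higher in both YKL libraries, but its log2 fold change of 0.65 ± 0.43 was not called (edgeR adjusted p = 0.431). Slc16a3 (ENSMUSG00000025161, chr11:120948480-120960868), the lactate exporter MCT4, had 84.4 and 637 CPM in DMSO and 490 and 545 CPM in YKL. The YKL libraries sat close to DMSO replicate 2, 89.6% of the way up from DMSO replicate 1 on the log2 scale. The fitted log2 fold change of Slc16a3 was 0.52 ± 1.19 (SE, edgeR adjusted p = 0.87).

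The regulatory kinases split. Pfkfb3 (ENSMUSG00000026773, chr2:11471433-11554077), which makes the fructose 2,6-bisphosphate that activates phosphofructokinase, had 32.9 and 294 CPM in DMSO and 177 and 175 CPM in YKL. Its DMSO ratio was 8.93 (interval 8.39 to 9.52), and its fitted log2 fold change was 0.11 ± 1.27 (SE, edgeR adjusted p = 0.977). Pfkfb4, a paralog of Pfkfb3, stayed between 29.0 and 36.7 CPM in all libraries. Its DMSO ratio was 1.17. Pdk1, which holds pyruvate out of the mitochondrion by blocking pyruvate dehydrogenase, had 67.1 and 379 CPM in DMSO and 137 and 129 CPM in YKL. Here the YKL libraries sat nearer to DMSO replicate 1, at 39.5% of the span.

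Of the other hypoxia genes, Adm (ENSMUSG00000030790, chr7:110627661-110629820), the vasodilator peptide adrenomedullin, had the largest ratio. Its raw counts were 40 and 1002 with DMSO and 382 and 414 with YKL, or 1.20, 31.8, 12.5 and 12.9 CPM. DMSO replicate 2 was 26.3-fold above DMSO replicate 1, with a counting interval of 19.4 to 37.4, while the YKL libraries differed 1.03-fold. The fitted log2 fold change was -0.38 ± 1.74 (SE, edgeR adjusted p = 0.94). Vegfa (ENSMUSG00000023951, chr17:46016993-46032369), the main growth factor of blood vessels, had 49.9 and 276 CPM in DMSO and 217 and 128 CPM in YKL. The YKL libraries differed 1.70-fold, and the DMSO libraries lay outside them on either side. Its log2 fold change was 0.08 ± 1.05 (SE, edgeR adjusted p = 0.979).

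The mitophagy receptors had the highest mean levels per length of the other hypoxia genes, though in DMSO replicate 1 Bnip3 lay below Ddit4 (46.6 RPKM), Hif1a (46.0 RPKM) and Egln1 (30.1 RPKM). Bnip3 (ENSMUSG00000078566, chr7:138890836-138909519) had 27.9 and 245 RPKM in DMSO and 97.9 and 111 RPKM in YKL, and its DMSO ratio was 8.76 (interval 8.37 to 9.17). Its fitted log2 fold change was -0.38 ± 1.27 (SE, edgeR adjusted p = 0.914). Bnip3l (ENSMUSG00000022051, chr14:66985239-67008877), a related receptor also called NIX, had 72.7 and 144 RPKM in DMSO and 98.9 and 90.7 RPKM in YKL. Its DMSO ratio of 1.98 fell just under the 2-fold mark, and its fitted log2 fold change was -0.19 ± 0.31 (SE, edgeR adjusted p = 0.785).

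Both oxygen-sensing hydroxylases of the list followed the same order. Egln3 (ENSMUSG00000035105, chr12:54178981-54203860) had 51.4 and 356 CPM in DMSO and 144 and 180 CPM in YKL, and its DMSO ratio was 6.93 (interval 6.59 to 7.29). Its fitted log2 fold change was -0.33 ± 1.16 (SE, edgeR adjusted p = 0.917). Egln1, the main hydroxylase of HIF-1 alpha, had 108 and 265 CPM in DMSO and 211 CPM in each YKL library. P4ha1 and P4ha2, the catalytic subunits of collagen prolyl 4-hydroxylase, differed 3.79-fold and 3.98-fold between the DMSO libraries. Ankrd37, a small ankyrin-repeat gene, had 11.3 and 73.2 CPM in DMSO and 49.9 and 39.1 CPM in YKL, and 22.7% of its exonic bases are shared with Lrp2bp on the other strand.

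Ndrg1, a gene induced by stress and differentiation, had 110 and 472 CPM in DMSO and 246 and 233 CPM in YKL. Ddit4, also called Redd1, an inhibitor of mTORC1 signalling, had 81.8 and 230 CPM in DMSO and 93.3 and 90.1 CPM in YKL. Its YKL libraries sat only 11.1% of the way up from DMSO replicate 1, the lowest value among the 30 members that lay between. Car9, the surface carbonic anhydrase often used as a hypoxia marker, was almost absent. Its counts were 7 and 18 with DMSO and 12 and 8 with YKL. Its DMSO ratio of 2.62 has a counting interval of 1.09 to 7.73, so its size is poorly fixed at this depth.

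Hif1a (ENSMUSG00000021109, chr12:73901375-73947530), which encodes HIF-1 alpha itself, did not share the order of most members. Neither did Hk1, Eno2, Ldhb, Slc2a3 and Pfkfb4. Hif1a had 271 and 198 CPM in DMSO and 208 and 274 CPM in YKL, so the higher DMSO library was replicate 1. The DMSO ratio was 0.731 (interval 0.708 to 0.755) and the log2 fold change 0.04 ± 0.22 (SE, edgeR adjusted p = 0.949). The antisense gene Gm15283 shares 330 exonic bases with Hif1a. Its counts were 22 and 225 with DMSO, then 86 and 110 with YKL, against at least 6254 for Hif1a.

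**Figure D3:**
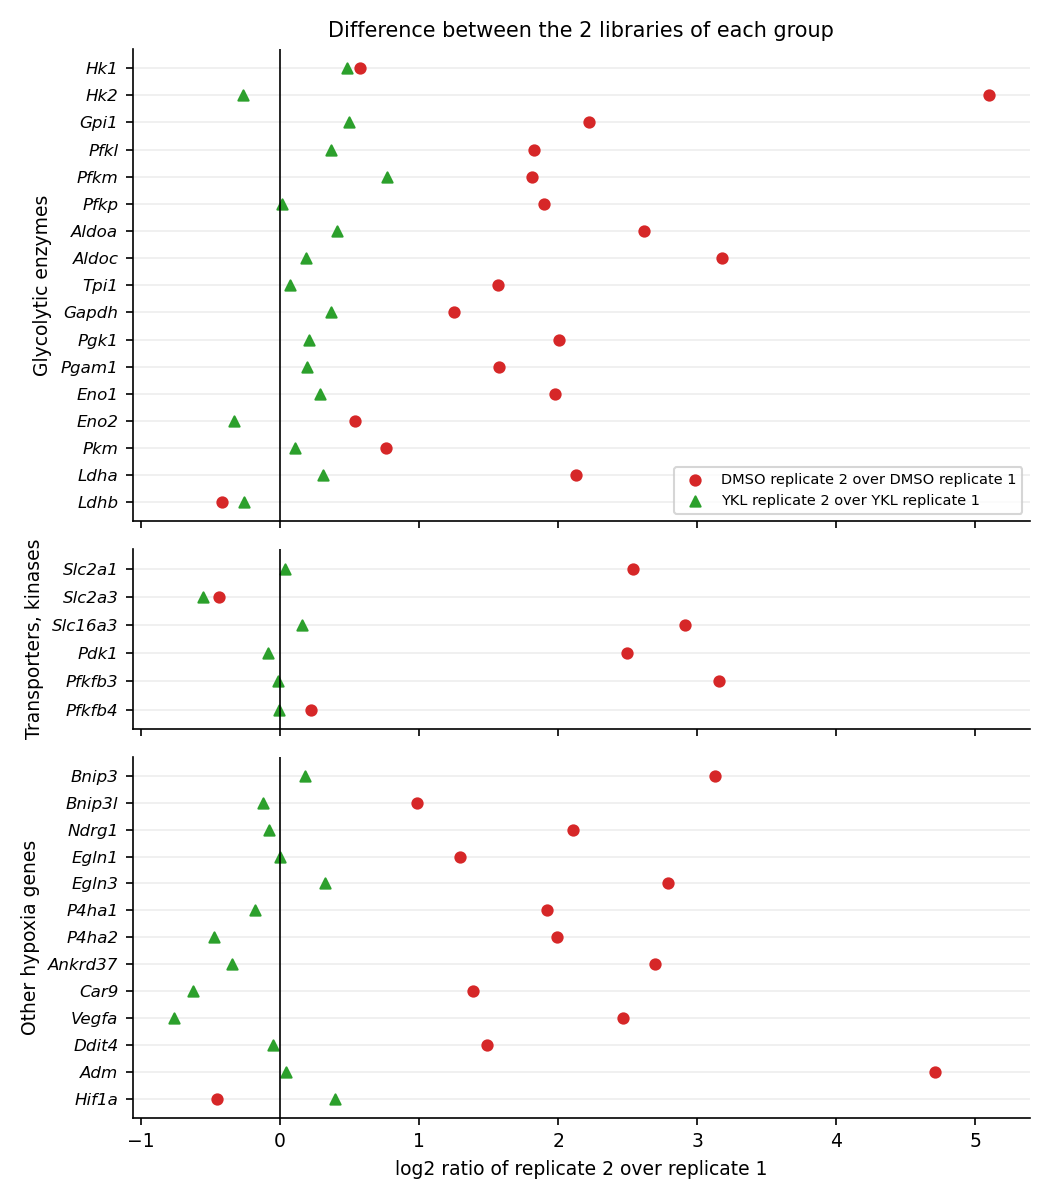
Log2 ratio of replicate 2 over replicate 1 for each gene, within DMSO (red circles) and within YKL (green triangles). The DMSO ratios reach 5.10 for Hk2 and 4.72 for Adm and lie below 0 for Ldhb, Slc2a3 and Hif1a, whereas the YKL ratios stay between -0.77 and 0.77.

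Set among all genes, the median log2 ratio of DMSO replicate 2 over DMSO replicate 1 was 1.83 for the enzymes, 2.52 for the transporters and kinases and 1.99 for the other hypoxia genes, against 0.00 over the tested genes. Within YKL the medians were 0.21, -0.01 and -0.08. Among 11244 protein-coding genes that averaged 5 CPM or more, ordered from the highest DMSO ratio, Hk2 ranked at 2 and Adm at 5. Aldoc, Pfkfb3 and Bnip3 ranked at 17, 18 and 19, and Hif1a at 10077.

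**Figure D4:**
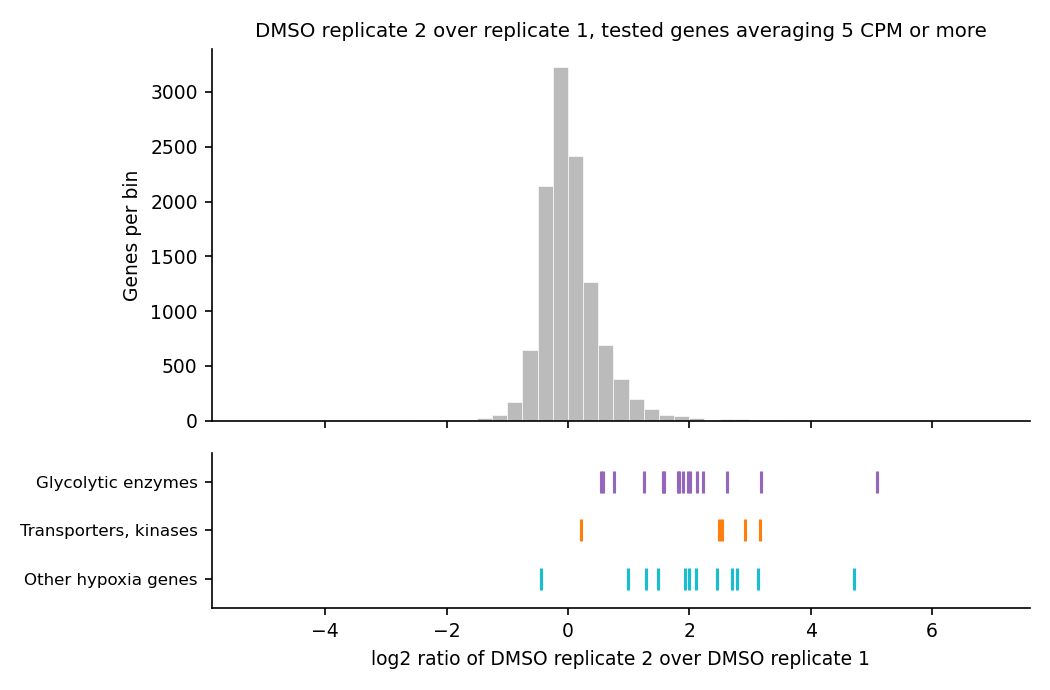
Upper panel: number of tested genes averaging 5 CPM or more per bin of the log2 ratio of DMSO replicate 2 over DMSO replicate 1. Lower panel: 1 tick for each member at or above that mean, by role; most ticks lie to the right of 1, the 2-fold mark, which 27 of 33 members and 4.25% of 11543 genes passed.

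The comparison of YKL with DMSO was repeated with each DMSO library left out. In these fits the lone DMSO library is assumed to vary like the YKL pair. Without DMSO replicate 1, 17 members were lower in YKL and 0 higher, against 3.83% and 3.77% of all tested genes. The lower ones were 8 enzymes, 3 transporters and kinases and 6 other hypoxia genes, and the median log2 fold changes by role were -0.75, -0.53 and -0.83. Pdk1 (log2 fold change -1.51 ± 0.21 SE, edgeR adjusted p = 4.52e-05) and Ddit4 (-1.32 ± 0.21 SE, adjusted p = 0.000211) had the smallest adjusted p.

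Without DMSO replicate 2 the direction turned. There, 26 members were higher in YKL and 1, Ldhb, was lower, against 7.96% and 6.06% of all tested genes. The higher ones were 13 enzymes, 4 transporters and kinases and 9 other hypoxia genes, with medians of 1.07, 1.34 and 1.09 by role. Hk2 went from a log2 fold change of -1.27 ± 0.22 (SE, edgeR adjusted p = 0.000492) without DMSO replicate 1 to 3.80 ± 0.32 (adjusted p = 5.05e-29) without DMSO replicate 2. Slc2a1 likewise went from -0.77 ± 0.21 (adjusted p = 0.0236) to 1.73 ± 0.26 (adjusted p = 3.82e-09), and Ldha from -0.85 ± 0.26 (adjusted p = 0.0436) to 1.24 ± 0.27 (adjusted p = 0.000179). The sign of the YKL effect on these genes thus depended on which DMSO library was used. Hk1, Eno2, Pkm, Slc2a3, Pfkfb4, Bnip3l, Car9 and Hif1a were not called in either fit, and Ldhb kept a negative log2 fold change in both.

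**Figure D5:**
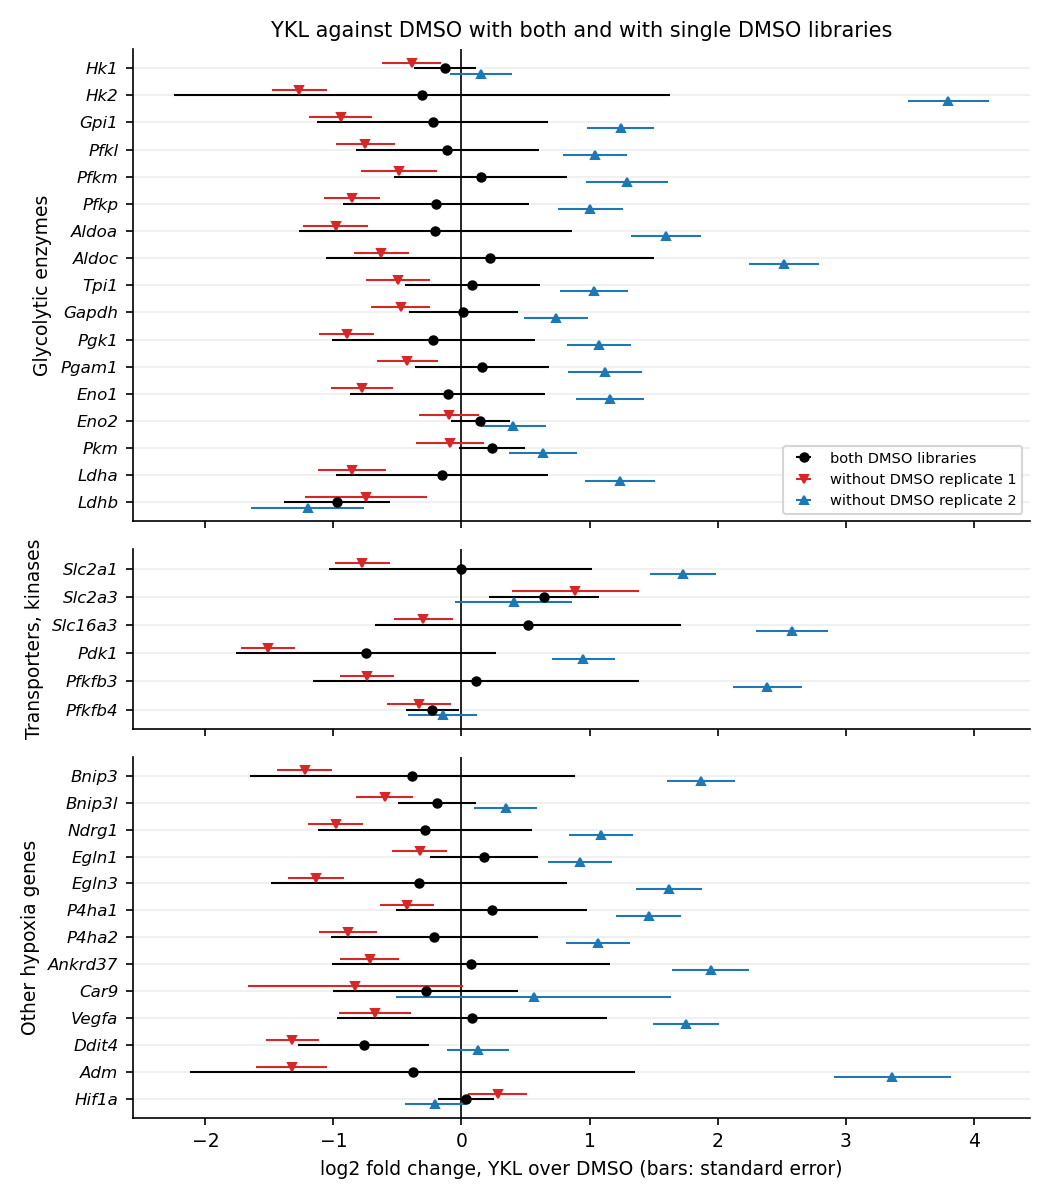
Log2 fold change of YKL over DMSO with its standard error for each gene, from the fit of all 4 libraries (black), without DMSO replicate 1 (red) and without DMSO replicate 2 (blue). The black points lie between -0.97 (Ldhb) and 0.65 (Slc2a3); for most genes the red points lie below 0 and the blue points above it.

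Genes around the pathway were taken from 6 further lists. Of 16 tested other isoforms and side reactions of glycolysis, 1 rose and 0 fell, against 2.1% and 1.44% of all tested genes. Tigar, a phosphatase that lowers fructose 2,6-bisphosphate and so acts against Pfkfb3, had 18.3 and 18.02 CPM in DMSO and 42.4 and 40.6 CPM in YKL. Its log2 fold change was 1.19 ± 0.21 (SE, edgeR adjusted p = 0.0221), and the call was lost when either YKL library was left out (adjusted p = 0.135 without replicate 1 and 0.12 without replicate 2). It was called without DMSO replicate 1 (edgeR adjusted p = 0.00511) and without DMSO replicate 2 (adjusted p = 0.0011). Slc16a1, the monocarboxylate transporter MCT1, had 38.7 and 67.9 CPM in DMSO and 116 and 115 CPM in YKL. Both YKL libraries were above both DMSO libraries, and the log2 fold change of 1.12 ± 0.26 missed the threshold (edgeR adjusted p = 0.056), while DESeq2 called it (adjusted p = 0.00284). It was higher and called in both edgeR fits that left out a DMSO library, with log2 fold changes of 0.77 without replicate 1 (adjusted p = 0.034) and 1.54 without replicate 2 (adjusted p = 2.26e-07).

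In the lists of pyruvate entry into mitochondria (11 tested), the pentose phosphate pathway (8), HIF subunits and their regulators (16), further HIF target genes (36) and glucose-sensing and MYC family factors (9), 0 genes were called in either direction, against 3.54% of all tested genes. The further HIF targets turned with the DMSO library, as the members did. Their median log2 fold change was -0.27 without DMSO replicate 1 and 0.82 without DMSO replicate 2, beside 0.01 and 0.00 over all tested genes. For the remaining lists, other glycolytic genes included, the medians ran from -0.16 to 0.17 without DMSO replicate 1. Without DMSO replicate 2 they ran from -0.19 to 0.11.

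The DMSO contrast was not shared by all of them. Over 2-fold higher in DMSO replicate 2 were 22 of the 36 further HIF targets and 3 of the 16 other glycolytic genes, but 0 of the 11 pyruvate entry genes, 0 of the 8 pentose phosphate genes, 1 of the 16 HIF regulators (Hif3a, at 0.568 and 2.57 CPM) and 1 of the 9 glucose-sensing and MYC factors (Mlxipl, at 18.1 and 43.7 CPM). The share over all tested genes was 9.99%. Hif3a and Mlxipl were named after their values were seen. The median DMSO ratio was 2.34 for the further HIF targets and between 0.899 and 1.14 for the other lists.

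Arnt, the partner of HIF-1 alpha, had 61.5 and 67.4 CPM in DMSO and 43.7 and 45.3 CPM in YKL (log2 fold change -0.53 ± 0.18 SE, edgeR adjusted p = 0.135), and was not called in either fit that left out a DMSO library (adjusted p = 0.105 without replicate 1 and 0.167 without replicate 2). Vhl, the substrate receptor of the ligase that removes HIF-1 alpha, had 63.4 and 66.0 CPM in DMSO and 70.6 and 74.7 CPM in YKL. Epas1, which encodes HIF-2 alpha, was low, at 1.17 and 2.22 CPM in DMSO and 6.30 and 4.38 CPM in YKL, and was not called (log2 fold change 1.66 ± 0.48 SE, edgeR adjusted p = 0.0915), although DESeq2 called it (adjusted p = 0.0217). Epas1 was called without DMSO replicate 2 (edgeR adjusted p = 0.000791) and not without DMSO replicate 1 (adjusted p = 0.118). Txnip, a glucose-responsive brake on glucose uptake, had 166 and 281 CPM in DMSO and 329 and 292 CPM in YKL (edgeR adjusted p = 0.326), and was called higher without DMSO replicate 2 (adjusted p = 0.00746) but not without DMSO replicate 1 (adjusted p = 0.757). Between the DMSO libraries, Arnt differed 1.10-fold and Vhl 1.04-fold.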

How the data were processed

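RNA of RPP631 cells was sequenced in 4 libraries, 2 per group. Per the submitters' processing notes, STAR 2.5.2b placed the reads on mm10 and featureCounts assigned them to genes, and the authors deposited the raw counts for every gene and library. The strand setting, the treatment of multi-mapped reads and the annotation release are not given in the sources used here. The authors also deposited a DESeq2 comparison that holds, per gene, a mean normalized signal, a log2 fold change, a test score and raw and adjusted p-values; it was used only where named. Members were matched by symbol through the deposited gene annotation and joined by Ensembl identifier. The members, the lists and the tests were chosen with earlier results of these data known.

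YKL and DMSO were compared with edgeR 4.0.16 in R 4.3.3 on the 4 libraries (filterByExpr, minimum count 10 and minimum total 15, TMM scaling, quasi-likelihood test with a robust prior, 2 residual degrees of freedom). Benjamini-Hochberg adjustment ran over all 16749 genes, and a gene was called at an adjusted p under 0.05. RPKM used the deposited exonic length. Single libraries were compared as ratios with 0.5 counts added, and counting intervals of ratios (exact binomial) and shares (Wilson) are at 95% and do not cover the spread between cultures. The test was checked on simulated counts.

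Described in full were called members, the 2 members with the highest mean RPKM and the 3 with the largest DMSO ratio (mean of at least 5 CPM) in each role group, and Hif1a, Slc2a1, Ldha and Vegfa. From the other lists, called genes and Epas1, Arnt, Vhl, Txnip and Slc16a1 were named. As alternatives, TMM was replaced by RLE, upper quartile or total count scaling, the filter by none or by 5 CPM in at least 2 libraries, edgeR by DESeq2 1.42.0, and the threshold by 0.01. Others dropped the robust prior, added a block for the replicate number, or left out each library in turn.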

Additional observations from a re-analysis of the deposited data

How the results depend on the processing

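Over all genes, 593 were called, 701 with RLE scaling and 563 with a filter of 5 CPM in 2 libraries. The count was 1588 with DESeq2, 1740 with no filter, 236 with no robust prior, 169 with total count scaling, 331 with upper quartile scaling and 30 at an adjusted p under 0.01; it ran from 71 to 2453 when single libraries were left out. The cause of these shifts was not tested. Of the members, 0 were called with DESeq2, under each scaling and with no robust prior, 1 with no filter (Ddit4, lower in YKL), and between 0 and 27 with a library left out. Leaving out single libraries moved the median log2 fold change from -0.75 to 1.07 for the enzymes and from -0.83 to 1.09 for the other hypoxia genes. The median log2 DMSO ratios of the enzymes were 1.81 with RLE, 1.88 with total count and 1.89 with upper quartile scaling, and those of the other hypoxia genes 1.97, 2.04 and 2.05. For the transporters and kinases they were 2.57 with total count and 2.58 with upper quartile scaling. The median log2 YKL ratios of the enzymes were 0.22, 0.13 and 0.18 under the same 3 scalings. With total count and upper quartile scaling they were -0.085 and -0.043 for the transporters and kinases, and -0.15 and -0.11 for the other hypoxia genes.

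The replicate numbers of the groups share no stated origin, and the deviations of same-numbered libraries correlated at 0.15 over 16749 genes, with only 2 pairs. Some genes differed alike in both groups: the log2 ratios of replicate 2 over replicate 1 in DMSO and YKL were -3.21 and -2.83 for Sox2. They were -3.41 and -2.68 for Zeb1, but 5.10 and -0.26 for Hk2 and 4.72 and 0.04 for Adm. Whether same-numbered libraries share an origin was not tested. With the replicate number as a block, 1387 genes and 0 members were called, and the log2 fold changes that turned sign were 1.17 for Hk2, 0.14 for Gpi1, 0.15 for Pfkl, 0.089 for Pfkp, 0.31 for Aldoa, 0.098 for Pgk1, 0.20 for Eno1, 0.20 for Ldha, 0.49 for Slc2a1, 0.33 for Bnip3, 0.069 for Ndrg1, 0.24 for Egln3, 0.084 for P4ha2, 0.87 for Adm. With no filter Gapdh went to -0.0037.

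The log2 fold change of 33 members turned sign when a library was left out, running over the 4 such fits from -0.49 to 1.29 for Pfkm, -0.63 to 2.52 for Aldoc, -0.49 to 1.04 for Tpi1, -0.48 to 0.74 for Gapdh, -0.42 to 1.12 for Pgam1, -0.097 to 0.40 for Eno2, -0.089 to 0.63 for Pkm, -0.30 to 2.58 for Slc16a3, -0.74 to 2.39 for Pfkfb3, -0.33 to 0.93 for Egln1, -0.42 to 1.46 for P4ha1, -0.72 to 1.94 for Ankrd37, -0.67 to 1.75 for Vegfa, -0.39 to 0.15 for Hk1, -1.27 to 3.80 for Hk2, -0.94 to 1.24 for Gpi1, -0.75 to 1.04 for Pfkl, -0.86 to 1.01 for Pfkp, -0.98 to 1.60 for Aldoa, -0.90 to 1.07 for Pgk1, -0.78 to 1.16 for Eno1, -0.85 to 1.24 for Ldha, -0.77 to 1.73 for Slc2a1, -1.51 to 0.95 for Pdk1, -1.22 to 1.87 for Bnip3, -0.60 to 0.35 for Bnip3l, -0.98 to 1.09 for Ndrg1, -1.14 to 1.62 for Egln3, -0.89 to 1.07 for P4ha2, -0.83 to 0.56 for Car9, -1.32 to 0.13 for Ddit4, -1.33 to 3.37 for Adm and -0.20 to 0.28 for Hif1a. Depth limits Car9, at 7 to 18 counts per library.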

Other observations

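The DMSO contrast reached genes of the further lists too, here 3 HIF targets and 2 genes around glycolysis. Ak4, a mitochondrial adenylate kinase, had 6.90 and 191 CPM in DMSO and 119 and 122 CPM in YKL. Bhlhe40, a repressor of the circadian clock, had 6.43 and 211 CPM in DMSO and 104 and 59.9 CPM in YKL. Ero1l, the oxidase that forms disulfide bonds in the endoplasmic reticulum, had 73.3 and 375 CPM in DMSO and 269 and 247 CPM in YKL. Pgm2 had 37.1 and 194 CPM in DMSO and 134 and 159 CPM in YKL. Bsg, the chaperone of the lactate transporters, had 535 and 1542 CPM in DMSO and 1234.5 and 1430.3 CPM in YKL. In all 5 the YKL libraries lay between the DMSO libraries. These genes were named after their values were seen.

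Outside all lists, the largest ratio among protein-coding genes that averaged 5 CPM or more was that of Smtnl2, whose counts were 11 and 1018 with DMSO and 210 and 390 with YKL. Selenbp1, a selenium-binding protein, had 15.1 and 252 CPM in DMSO and 88.0 and 106 CPM in YKL. Krt19, an epithelial keratin, had 15.8 and 136 CPM in DMSO and 47.4 and 74.5 CPM in YKL. Among the genes lower in DMSO replicate 2 were Sox2 and Zeb1. Sox2, a transcription factor of progenitor cells, had 70.1 and 7.55 CPM in DMSO and 34.7 and 4.87 CPM in YKL. Zeb1, a repressor of epithelial genes, had 14.3 and 1.33 CPM in DMSO and 30.1 and 4.69 CPM in YKL. For both, replicate 2 was the lower library in each group. Col11a1, also lower in DMSO replicate 2, had 20.1 and 3.84 CPM in DMSO and 14.1 and 5.03 CPM in YKL. Its YKL libraries lay between the DMSO libraries, and replicate 2 was the lower library in YKL too. AW551984, Fbn1, Mbnl3, Lrrn1 and Calb1 were likewise lower in replicate 2 of each group. Their log2 ratios of replicate 2 over replicate 1 ran from -5.00 to -2.41 in DMSO and from -5.28 to -2.27 in YKL. These ratios of single libraries have no test.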
